A study of Rattus norvegicus with 24 samples.

Results

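Aldehyde dehydrogenases, the enzymes that oxidise aldehydes to carboxylic acids, were examined in the lung of rats that inhaled hexanal. The members were the 10 genes Aldh1a1, Aldh1a2, Aldh1a3, Aldh1a7, Aldh2, Aldh3a1, Aldh3a2, Aldh3b1, Aldh7a1 and Aldh9a1, taken as every probe whose accession maps to one of these symbols. Of these 10 members, 9 were matched to 10 probes, with 2 probes for Aldh3a2, and Aldh1a7 was not analysed here. All 9 matched members were well above background on all 24 arrays, and they made up 9 of the 21255 genes and unnamed probes tested. RNA of whole lung was hybridised to 1-colour rat oligonucleotide arrays, 1 array a rat, for 24 Fischer-344 rats. The labels give an age of 7 to 8 weeks. In the written methods the rats were 7 weeks old when bought, before acclimation and exposure. The control group breathed filtered air, and the low-dose, middle-dose and high-dose groups breathed hexanal vapour at 600, 1000 and 1500 ppm for 4 hours a day on 5 days a week. Each group of 6 rats held 3 males and 3 females. The sample labels give 5 weeks of exposure and state the concentration in mg per cubic metre in 1 field and in ppm in the group names, while the written methods give 4 weeks and ppm. No allele or other agent is named in the labels of any group, and the groups differed in the inhaled atmosphere and in the slide on which their RNA was hybridised.

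Hexanal is a straight-chain aldehyde that arises in the air from materials and in tissue from the oxidation of membrane lipids. Aldehyde dehydrogenases use NAD or NADP to turn such aldehydes into the matching acid, and family members differ in cellular compartment and preferred substrate. Aldh1a1, Aldh1a2 and Aldh1a3 are the retinaldehyde dehydrogenases, which make retinoic acid and also take aldehydes from lipid peroxidation. Aldh3a1, Aldh3a2 and Aldh3b1 act on medium-chain and long-chain aldehydes, Aldh2 is the mitochondrial enzyme best known for clearing acetaldehyde, Aldh7a1 acts in lysine breakdown and Aldh9a1 in the making of carnitine and gamma-aminobutyric acid. In the airway, several of these enzymes are found in the epithelium, where club cells carry much of the metabolism of inhaled chemicals.

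Upstream sequences are shown for the 4 members that had an unadjusted p under 0.05 at any dose in the tests described further on. A table of RefSeq promoters on the assembly GRCr8 held a window for 7 of the members, and the 250 bases before the annotated start were searched on both strands for 6 motifs: the CCAAT box (CCAAT), the GC box (GGGCGG), the TATA box (TATAAA), the core of the xenobiotic response element (GCGTG), the core of the antioxidant response element (TGACNNNGC) and the nuclear receptor half-site (AGGTCA). Each line gives the window 5′ to 3′ on the strand of the gene, with every motif match in capitals; no base belonged to 2 motifs. The windows are Aldh1a1 at chr1:227537370-227537619 on the plus strand, Aldh1a3 at chr1:129427644-129427893 on the minus strand, Aldh3b1 at chr1:210591816-210592065 on the minus strand and Aldh9a1 at chr13:82038429-82038678 on the plus strand.
Aldh1a1: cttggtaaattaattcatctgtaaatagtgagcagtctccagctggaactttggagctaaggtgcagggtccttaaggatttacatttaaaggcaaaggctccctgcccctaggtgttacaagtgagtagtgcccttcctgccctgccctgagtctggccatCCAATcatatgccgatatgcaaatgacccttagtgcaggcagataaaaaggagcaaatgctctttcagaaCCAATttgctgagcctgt
Aldh1a3: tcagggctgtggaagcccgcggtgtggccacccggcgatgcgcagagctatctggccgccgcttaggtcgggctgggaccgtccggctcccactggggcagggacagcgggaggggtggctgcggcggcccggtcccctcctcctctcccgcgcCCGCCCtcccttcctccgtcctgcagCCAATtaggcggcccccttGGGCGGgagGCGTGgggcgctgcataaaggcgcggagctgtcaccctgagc
Aldh3b1: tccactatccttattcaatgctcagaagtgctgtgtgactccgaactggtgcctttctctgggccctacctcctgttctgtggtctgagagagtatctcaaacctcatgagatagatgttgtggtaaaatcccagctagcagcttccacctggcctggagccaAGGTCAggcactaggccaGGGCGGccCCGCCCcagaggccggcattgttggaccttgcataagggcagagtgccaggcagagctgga
Aldh9a1: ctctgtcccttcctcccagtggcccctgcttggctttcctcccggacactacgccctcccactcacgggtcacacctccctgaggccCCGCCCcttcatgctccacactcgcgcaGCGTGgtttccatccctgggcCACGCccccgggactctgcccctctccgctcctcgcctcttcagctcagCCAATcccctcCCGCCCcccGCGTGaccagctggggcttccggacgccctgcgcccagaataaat
The window of Aldh1a1 held 2 CCAAT boxes, which start 88 and 18 bases before the start, and no other motif searched. That of Aldh3b1 held 1 nuclear receptor half-site and 2 GC boxes, that of Aldh1a3 2 GC boxes, 1 CCAAT box and 1 GCGTG, and that of Aldh9a1 3 GCGTG cores, 2 GC boxes and 1 CCAAT box. Over all 33469 windows of the same length in the table, CCAAT was found in 34.0%, GGGCGG in 30.5%, GCGTG in 25.9%, AGGTCA in 14.1%, TATAAA in 12.9% and TGACNNNGC in 10.1%. The antioxidant core was found in 1 of the 7 member windows, that of Aldh1a2, and TATAAA in none of the 7. A match is a string of letters and was not measured as a binding site.

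The labelled tissue was borne out by its markers. All 10 markers of lung parenchyma were well above background on all 24 arrays, among them Sftpc, surfactant protein C, with group means between 7.73 and 7.80, on a log2 scale relative to the 75th percentile of each array. All 7 club cell markers on the array were measured on all 24 as well. The 75th percentile of the processed signal ran from 1701 to 3133 over the arrays, 70.7 to 81.7% of probes were well above background, and no spot was saturated. Markers of heart muscle, a tissue that the label does not name, were present at uneven levels. Of the 12 heart muscle markers on the array, 9 were well above background on all 24 arrays, and Nppa, the atrial natriuretic peptide, on a minority of them. Their summed linear level ran from 3.82 to 38.6 with a median of 7.27 in the controls, from 5.44 to 64.2 with a median of 18.4 at 600 ppm, from 9.15 to 136.0 with a median of 55.6 at 1000 ppm and from 3.82 to 137.7 with a median of 14.7 at 1500 ppm. The arrays were printed 4 to a slide on 6 slides, and each slide held rats of 1 sex from 2 neighbouring groups.

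Each dose was then compared with control to ask whether hexanal altered the RNA of the enzymes that can oxidise it. No member reached a fold change of 1.5 with an unadjusted p under 0.05 at any dose, against 0.616% of all genes at 600 ppm, 1.64% at 1000 ppm and 1.22% at 1500 ppm. No member had a Benjamini-Hochberg adjusted p under 0.05 in limma either, where the share of all genes was 0%, 0.0188% and 0.0047%. The smallest adjusted p of a member was 0.997 at 600 ppm, 0.515 at 1000 ppm and 0.674 at 1500 ppm. The largest difference of a member from control was 1.18-fold at 600 ppm, 1.29-fold at 1000 ppm and 1.28-fold at 1500 ppm. The 95% intervals reached as far as 1.46-fold, 1.70-fold and 1.58-fold, so that changes larger than these were outside the interval of every member in this fit. The slide is not in this fit, and no rat at 1000 or 1500 ppm shared a slide with a control, so that the intervals may be too narrow. The plot of differences with their intervals shows all these comparisons against the 1.5-fold lines.

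**Figure D1:**
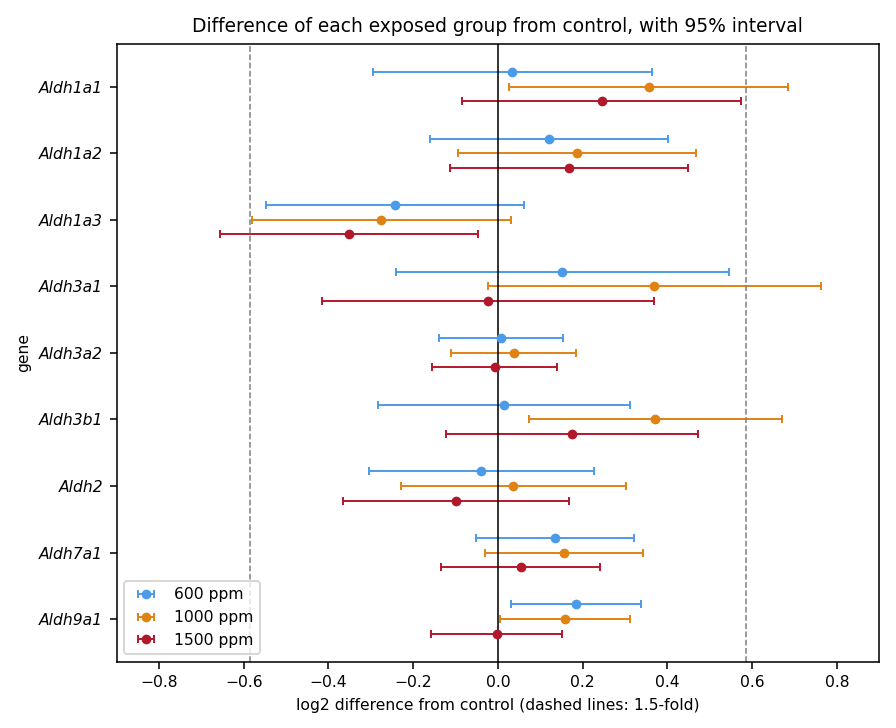
Difference of each exposed group from control for the 9 measured members, on the log2 scale (horizontal axis), with 1 point and 95% interval for each of the 3 doses and dashed lines at 1.5-fold. All points lie inside the dashed lines, and at 1000 ppm the intervals of Aldh1a1, Aldh3b1 and Aldh9a1 lie above 0.

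Differences at an unadjusted p under 0.05 were found for 4 members. At 600 ppm, 1 member was higher and none lower, where 1.87% of all genes were higher and 2.46% lower. At 1000 ppm, 3 members were higher and none lower, where the shares of all genes were 5.34% and 3.65%. At 1500 ppm, none was higher and 1 lower, where the shares were 3.9% and 3.06%. The median difference of the 9 members from control was, in log2 units, 0.03 in the low-dose, 0.16 in the middle-dose and −0.003 in the high-dose group, beside −0.0013, 0.0047 and 0.013 for all genes. Counted without a threshold, 7 members were higher and 2 lower at 600 ppm, 8 higher and 1 lower at 1000 ppm, and 4 higher and 5 lower at 1500 ppm, where 49.6%, 51.3% and 53.8% of all genes were higher. The median size of the difference was 0.19 for the members and 0.11 for all genes at 1000 ppm, and 0.10 for both at 1500 ppm. Over all 4 groups, the F test of limma gave an unadjusted p under 0.05 for 1 member, Aldh9a1, and for 6.11% of all genes, with an adjusted p of 0.779 for Aldh9a1. No member had all 6 rats of an exposed group above all 6 controls, where 0.0941%, 0.259% and 0.311% of all genes did at 600, 1000 and 1500 ppm, or all 6 below, where 0.179%, 0.193% and 0.169% did. The plot by rat shows every level.

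**Figure D2:**
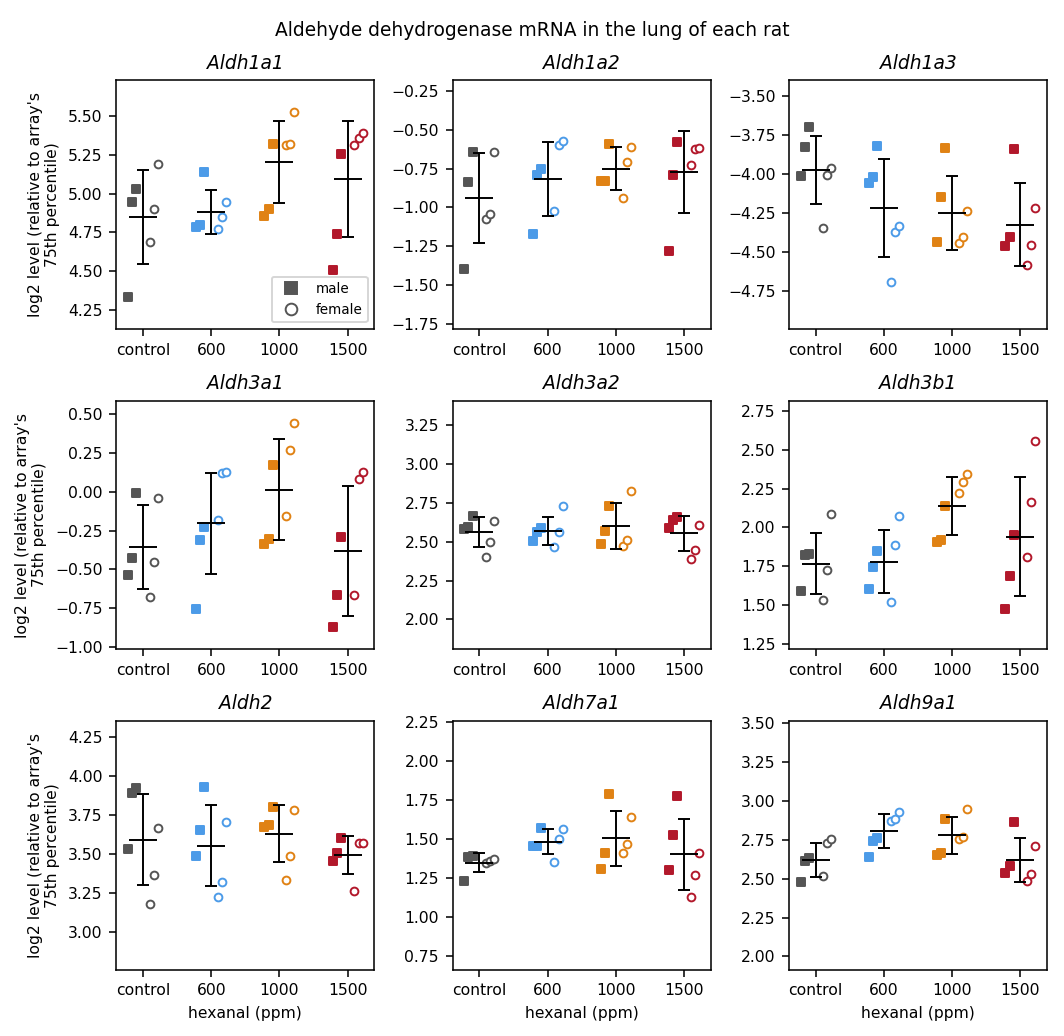
Level of the 9 members in each of the 24 rats (vertical axis, log2 relative to the 75th percentile of the array, each panel spanning the same width) by dose of hexanal in ppm, with filled squares for males, open circles for females and black bars for the mean ± SD of 6 rats. The groups overlap in all panels, with the middle-dose group of Aldh3b1 between 1.91 and 2.34 against 1.54 to 2.08 in the controls.

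Of the 3 retinaldehyde dehydrogenases, Aldh1a1 had an unadjusted p under 0.05 at 1000 ppm and Aldh1a3 at 1500 ppm, the first higher and the second lower than control, and Aldh1a2 at no dose. Aldh1a1, the cytosolic enzyme, lay between 4.34 and 5.19 with a median of 4.93 in the controls and between 4.77 and 5.14 with a median of 4.82 at 600 ppm. It lay between 4.85 and 5.52 with a median of 5.31 at 1000 ppm and between 4.51 and 5.39 with a median of 5.28 at 1500 ppm. At 1000 and at 1500 ppm, 4 of 6 rats were above every control, and no group was clear of the controls. The difference from control at 1000 ppm was 0.36 (SE 0.16, 1.28-fold, 95% interval 1.02 to 1.61), with an unadjusted p of 0.0352 and an adjusted p of 0.528 in limma and an exact permutation p of 0.0541. At 1500 ppm the difference was 0.24 (SE 0.16, adjusted p = 0.803 in limma), and at 600 ppm it was 0.03.

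Aldh1a3, which was dim, with processed signals between 71.0 and 236 on all arrays, had lower medians in the exposed groups. The control rats lay between −4.34 and −3.70 with a median of −3.99. The medians were −4.20 at 600 ppm (range −4.70 to −3.82), −4.32 at 1000 ppm (range −4.45 to −3.83) and −4.43 at 1500 ppm (range −4.58 to −3.84). Below every control were 2, 3 and 4 of 6 rats, and in each exposed group at least 1 rat lay inside the control range. The difference at 1500 ppm was −0.35 (SE 0.15, 0.784-fold, 95% interval 0.634 to 0.969), with an unadjusted p of 0.0261 and an adjusted p of 0.674 in limma and an exact permutation p of 0.0411. The slope on dose was −0.23 per 1000 ppm (SE 0.092) with an adjusted p of 0.531 in limma. Aldh1a3 was the single member with an unadjusted p under 0.05 for a trend, where 3.74% of all genes had a falling and 4.75% a rising trend. No member had an adjusted p under 0.05 for it, against 0.0141% of all genes, nor for the F test over the 4 groups, against 0.0047%. With the slide as a fixed block, the difference at 1500 ppm was −0.13 (unadjusted p = 0.659 in limma).

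Aldh1a2, the enzyme that makes most retinoic acid in the embryo and in the adult marks mesothelium among other cells, overlapped with the controls in every group. The control rats lay between −1.39 and −0.64 with a median of −0.94, and the medians of the exposed groups were −0.77, −0.77 and −0.68. The differences from control were 0.12, 0.19 and 0.17 with a SE of 0.14 each, and the smallest adjusted p was 0.706 in limma.

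Of the class 3 enzymes, Aldh3b1, which oxidises medium-chain and long-chain aldehydes at membranes, gave the smallest unadjusted limma p of any member in a comparison with control. The controls lay between 1.54 and 2.08 with a median of 1.78, and the low-dose group between 1.52 and 2.08 with a median of 1.80. The middle-dose group lay between 1.91 and 2.34 with a median of 2.18, and the high-dose group between 1.48 and 2.56 with a median of 1.88. In the middle-dose group, 4 of 6 rats were above every control, and in the high-dose group the highest and the lowest rat both lay outside the control range. The difference at 1000 ppm was 0.37 (SE 0.14, 1.29-fold, 95% interval 1.05 to 1.59), with an unadjusted p of 0.0168 and an adjusted p of 0.515 in limma and an exact permutation p of 0.0108. When rats were exchanged within each sex alone, the exact permutation p was 0.005, the smallest that this design can give. Aldh9a1 reached it at 600 and at 1000 ppm too. The share of all genes that reached this p is not given here, so that these values stand without a background and unadjusted. The difference of Aldh3b1 was 0.01 at 600 ppm and 0.18 at 1500 ppm, each with a SE of 0.14.

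The slides offered a comparison free of slide differences, since 4 rats of the low-dose group and 4 of the middle-dose group shared a male and a female slide. On these slides Aldh3b1 was higher at 1000 than at 600 ppm by 0.34 (SE 0.081, unadjusted p = 0.00395, adjusted p = 0.377 in limma). The difference was 0.35 on the male and 0.34 on the female slide, and on both slides the 2 middle-dose rats were above the 2 low-dose rats. Aldh1a1 was higher by 0.35 (SE 0.15, adjusted p = 0.767 in limma), with 0.14 on the male slide and 0.56 on the female slide. Among all genes, 4.69% were higher and 1.8% lower at an unadjusted p under 0.05 in this comparison, and these 2 were the members that were higher, with none lower. With control, which shared slides with 1 low-dose rat of each sex, the difference of Aldh3b1 at 1000 ppm was 0.26 with the slide as a fixed block (unadjusted p = 0.264 in limma).

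Aldh3a1, the cytosolic enzyme abundant in cornea and airway that is known to respond to the aryl hydrocarbon receptor, varied most between rats, over a 2.48-fold range. The controls lay between −0.68 and −0.01 with a median of −0.44, and the low-dose group between −0.76 and 0.13 with a median of −0.20. The middle-dose group lay between −0.34 and 0.44 with a median of 0.01, and the high-dose group between −0.87 and 0.12 with a median of −0.48. The middle-dose group had 3 rats above every control, and the high-dose group spanned the control range on both sides. The difference from control was 0.15 at 600 ppm, 0.37 at 1000 ppm and −0.02 at 1500 ppm, each with a SE of 0.19, and the adjusted p at 1000 ppm was 0.577 in limma. On the male slide that held both doses, the 3 high-dose rats were below the 1 middle-dose rat by 0.78 on average, and on the female slide by 0.59; with 1 rat on one side, these 2 values carry no test.

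Aldh3a2, the fatty aldehyde dehydrogenase of the endoplasmic reticulum that is deficient in Sjögren-Larsson syndrome, varied least when read by its brighter probe, over a 1.36-fold range, while its dimmer probe spanned 1.84-fold. The control median was 2.59, and the medians of the exposed groups were 2.56, 2.54 and 2.60, with every group inside 2.39 to 2.83. The differences from control were 0.008, 0.04 and −0.008 with a SE of 0.071 each. The second, dimmer probe of Aldh3a2 differed from control by −0.02, 0.05 and −0.22, the last with a SE of 0.12 and an adjusted p of 0.742 in limma.

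Aldh2 did not show a difference in any exposed group. The controls lay between 3.18 and 3.92 with a median of 3.60, and the medians were 3.57, 3.68 and 3.54 at 600, 1000 and 1500 ppm. The differences were −0.04, 0.04 and −0.10 with a SE of 0.13, and the 95% intervals ran from 0.777-fold to 1.23-fold over the 3 doses.

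Aldh9a1 and Aldh7a1 had slightly higher medians at 600 and 1000 ppm. Aldh9a1 lay between 2.48 and 2.75 with a median of 2.62 in the controls and between 2.64 and 2.93 with a median of 2.82 at 600 ppm. At 1000 ppm it lay between 2.65 and 2.95 with a median of 2.76, and at 1500 ppm between 2.49 and 2.86 with a median of 2.56. In each of the groups at 600 and 1000 ppm, 4 of 6 rats were above every control, while at 1500 ppm 1 was. The difference at 600 ppm was 0.18 (SE 0.074, 1.14-fold), with an unadjusted p of 0.0214 and an adjusted p of 0.997 in limma and an exact permutation p of 0.0152. At 1000 ppm it was 0.16 (SE 0.074, 1.12-fold), with an unadjusted p of 0.0449 and an adjusted p of 0.548 in limma and an exact permutation p of 0.039. At 1500 ppm it was −0.003. On the male and the female slide that carried controls, the single low-dose rat was above all 3 controls, by 0.17 and 0.21 on average. With the slide as a fixed block the difference was 0.19 at 600 ppm (unadjusted p = 0.104 in limma) and 0.15 at 1000 ppm (unadjusted p = 0.311), and the unadjusted p at 1000 ppm was above 0.05 in 8 of 16 alternatives.

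Aldh7a1 lay in a narrow range in the controls, 1.23 to 1.39 with a median of 1.37. The medians were 1.48 at 600 ppm, 1.44 at 1000 ppm and 1.36 at 1500 ppm, and the ranges 1.35 to 1.57, 1.31 to 1.79 and 1.13 to 1.77. At 600 and at 1000 ppm, 5 of 6 rats were above every control. The difference at 600 ppm was 0.14 (SE 0.090), with an adjusted p of 0.997 in limma and an exact permutation p of 0.0108 before adjustment, and 0.776 after it. The exact permutation test gave p under 0.05 for 2 members at 600 ppm, 2 at 1000 ppm and 1 at 1500 ppm, where 5.53%, 8.7% and 6.66% of all genes did.

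The sexes differed for 2 members. Over all 4 groups, with dose in the fit, Aldh1a3 was lower in females by 0.29 (SE 0.085, adjusted p = 0.0158 in limma), with means of −4.05 in males and −4.34 in females. Aldh2 was lower in females by 0.22 (SE 0.079, adjusted p = 0.0425 in limma), with means of 3.68 in males and 3.45 in females. Among all genes, 9.34% were lower and 15.6% higher in females at this threshold, and no member was called higher. Aldh2 kept an adjusted p under 0.05 in 10 of the 24 fits that left out 1 rat, and Aldh1a3 in all 24. Higher in females at an unadjusted p under 0.05 were Aldh3a1 by 0.30, Aldh1a1 by 0.24 and Aldh3b1 by 0.22, with adjusted p values of 0.0774, 0.0817 and 0.0761 in limma. At that unadjusted threshold 22.6% of all genes were higher and 15.1% lower in females. The second probe of Aldh3a2 was lower in females by 0.32 (SE 0.047, adjusted p = 8.36e-05 in limma over 23616 probes), whereas the brighter probe was lower by 0.05 (SE 0.049, adjusted p = 0.463), so that the 2 probes of this gene disagree. No slide held both sexes, so that sex and slide cannot be told apart on any array. With the slide as a random block the adjusted p was 0.0702 for Aldh1a3 and 0.133 for Aldh2, and with another background correction (normexp) the difference of the dim Aldh1a3 was −0.02.

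**Figure D3:**
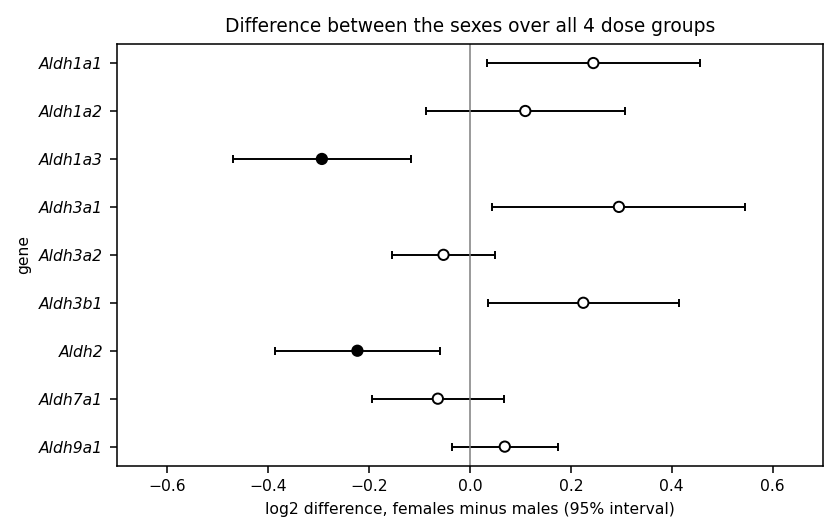
Difference between females and males over the 4 groups for each member (horizontal axis, log2, with dose in the fit and 95% intervals), with filled points for an adjusted p under 0.05 in limma. Aldh1a3 and Aldh2 lie below 0 with filled points, while Aldh1a1, Aldh3a1 and Aldh3b1 lie above 0 with open points.

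Whether the response to hexanal differed between the sexes was tested with an interaction term. No member had an adjusted p under 0.05 for it at 600, 1000 or 1500 ppm, where 0%, 0% and 5.02% of all genes did, and no member had an unadjusted p under 0.05, where 4.99%, 9.41% and 20.2% did. The smallest p was that of Aldh3b1 at 1500 ppm, whose difference from control was −0.04 in males and 0.39 in females (difference 0.44, SE 0.25, adjusted p = 0.355 in limma). The next was Aldh7a1 at 1500 ppm, which ran the other way, with 0.20 in males and −0.09 in females (adjusted p = 0.378). For Aldh3a1 at 1500 ppm the values were −0.29 in males and 0.24 in females (adjusted p = 0.412), and for Aldh1a1 0.06 and 0.43 (adjusted p = 0.494). Within a group, all 3 females were above all 3 males for Aldh3a1 and Aldh9a1 at 600 ppm, Aldh3b1 at 1000 ppm and Aldh1a1 at 1500 ppm, and all 3 were below for Aldh1a3 at 600 ppm. These were 5 of 36 cases, 0 of 9 in the controls, where 18.7% of all genes had all females above and 11% below, 3 of 9 at 600 ppm (15.9% and 7.62%), 1 of 9 at 1000 ppm (11.6% and 8.37%) and 1 of 9 at 1500 ppm (16.7% and 16.6%).

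Whole lung is a mixture, so that fewer cells of a type and less RNA per cell cannot be told apart in these values. The summed level of the club cell markers moved with Aldh3b1 and Aldh3a1. The secretoglobins Scgb1a1, Scgb3a1 and Scgb3a2 are among these markers, and relations with single markers were not tested. The summed linear level of the 7 club cell markers ran from 146 to 234 with a median of 176 in the controls, from 148 to 289 with a median of 194 at 600 ppm, from 192 to 266 with a median of 237 at 1000 ppm and from 152 to 309 with a median of 177 at 1500 ppm. At 1000 ppm, 6 of the 7 were higher than in control and 2 passed 1.5-fold at an unadjusted p under 0.05, Scgb3a1 with 2.95 (SE 1.27, adjusted p = 0.517 in limma) and Cyp2f4, a cytochrome P450 of club cells, with 0.89 (SE 0.35, adjusted p = 0.515). Scgb1a1, the major club cell secretory protein, was lower than in control by 0.16, 0.03 and 0.15 at the 3 doses, each with a SE of 0.10 and an unadjusted p above 0.05, and made up 39.3 to 75.7% of the club cell sum. Bpifa1, also in the sum, ran from −3.74 to 5.85 at 600 ppm and from −3.52 to 6.10 at 1500 ppm in log2 units. Scgb1a1 ran from 6.60 to 7.02 and from 6.60 to 7.20 in these groups. A difference in the sum between rats therefore need not be one in Scgb1a1, and what each marker added to it was not tested. Over the 24 rats, the log2 summed level of the club cell markers and the level of Aldh3b1 had a Pearson r of 0.858 and a Spearman rho of 0.872 (permutation p = 1e-05 for both, the smallest that the permutations can give, adjusted p = 0.00099 over 99 relations of members with marker lists). Without the 2 rats farthest from the median of the marker sum r was 0.840, within groups of equal dose and sex it was 0.845 and within slides 0.803. For Aldh3a1 the values were r = 0.674 and rho = 0.687 (permutation p = 0.00035 and 0.0003, adjusted p = 0.0173 and 0.00891), r = 0.635 without 2 rats, 0.446 within dose and sex and 0.478 within slides. For every relation, the permutations exchanged all 24 rats across dose, sex and slide, so that their p values may be too small. No p was computed for r within dose and sex or within slides. With the club cell sum as a covariate, the difference of Aldh3b1 at 1000 ppm was 0.15 (unadjusted p = 0.0922 in limma), and that of Aldh1a1 0.26 (unadjusted p = 0.131).

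**Figure D4:**
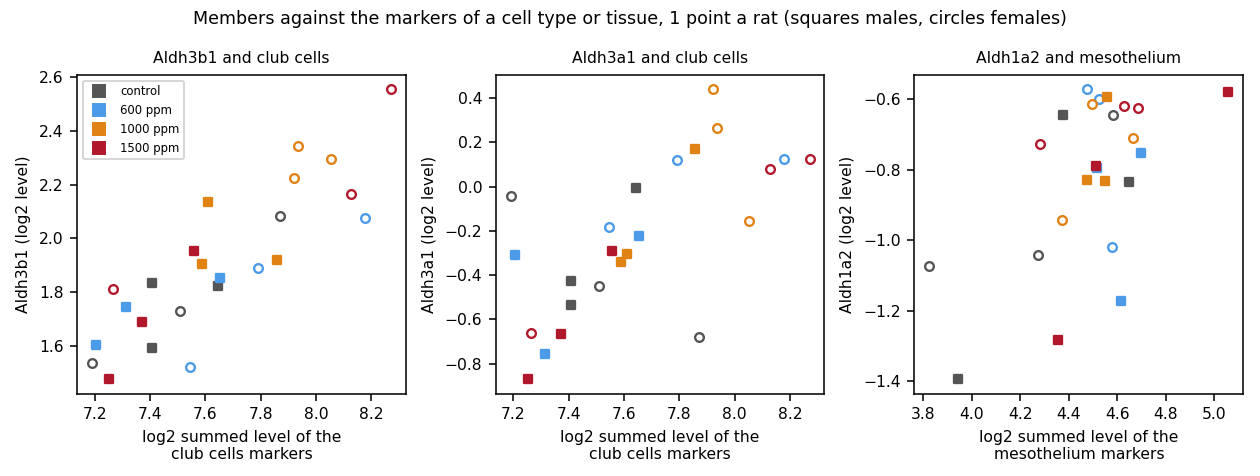
Level of Aldh3b1, Aldh3a1 and Aldh1a2 (vertical axes, log2 relative to the 75th percentile of the array) against the log2 summed level of club cell or mesothelium markers (horizontal axes), 1 point for each of 24 rats, coloured by dose, with filled squares for males and open circles for females. Aldh3b1 is higher in rats with a higher club cell sum (r = 0.858), and Aldh3a1 less closely (r = 0.674). The relation of Aldh1a2 with mesothelium has r = 0.583, or 0.352 without the 2 rats farthest from the median of the sum.

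The sum of heart muscle markers moved with Aldh3b1, and its relation with Aldh3a1 missed the threshold. Negative relations of Aldh3b1 missed it too, with the endothelium sum (r = −0.557, adjusted permutation p = 0.0595) and the red blood cell sum (r = −0.547, adjusted permutation p = 0.065). All 10 heart muscle genes that passed the filter were higher than in control at each dose, with median differences of 0.87, 2.21 and 0.64 from the lowest dose to the highest, and 6 of them passed 1.5-fold with an unadjusted p under 0.05 at 1000 ppm, led by Sln, the calcium pump regulator sarcolipin, with 3.67 (SE 1.48, adjusted p = 0.515 in limma). The next were Tnnt2, Tnnc1 and Tnni3, subunits of cardiac troponin, with 2.48, 2.40 and 2.02. The relation of their log2 sum with Aldh3b1 was r = 0.606 and rho = 0.684 (permutation p = 0.00188 and 0.00036, adjusted p = 0.0372 and 0.00891), r = 0.547 without 2 rats, 0.497 within dose and sex and 0.529 within slides. With Aldh3a1 it was r = 0.567 and rho = 0.569 (permutation p = 0.00428 and 0.00429, adjusted p = 0.0595 and 0.0636), and r = 0.459 without 2 rats. With the heart muscle sum as a covariate, the difference at 1000 ppm was 0.21 for Aldh3b1 (unadjusted p = 0.148 in limma) and 0.25 for Aldh1a1 (unadjusted p = 0.161).

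Aldh1a2 moved with the sums of 2 lists, that of basal and squamous epithelium and that of mesothelium. With the sum of basal and squamous markers it had r = 0.636 and rho = 0.743 (permutation p = 0.0009 and 7e-05, adjusted p = 0.0275 and 0.00347), 0.604 without 2 rats, 0.574 within dose and sex and 0.585 within slides. This list was dim, with 3 of its 7 genes on the array well above background on all 24 arrays. The brightest gene of its sum was Krt14, with group means of −3.75 to −3.18, followed by Krt5 with −4.60 to −4.32. The brightest genes of the mesothelium sum were the keratins Krt19 and Krt7, with group means of 2.97 to 3.34 and 2.46 to 2.72. Msln, mesothelin, had 1.54 to 2.10. With the sum of mesothelium markers Aldh1a2 had r = 0.583 and rho = 0.424 (permutation p = 0.00298 and 0.0394, adjusted p = 0.0492 and 0.205), 0.648 within dose and sex and 0.635 within slides, but r = 0.352 without 2 rats. The 2 rats left out are the farthest from the median of the sum, so that its range is narrower without them. How far the relation rests on these rats was not tested. Aldh1a3 went the other way with the basal and squamous sum, with r = −0.63 and rho = −0.618 (permutation p = 0.00111 and 0.00154, adjusted p = 0.0275 and 0.0305), −0.496 without 2 rats, −0.463 within dose and sex and −0.47 within slides. These were, with the 2 club cell relations and that of Aldh3b1 with heart muscle, the 6 of 99 relations with an adjusted p under 0.05 for Pearson r. The sum of ciliated cell markers had no relation at this threshold. It gave r = 0.540 with Aldh1a1 and r = 0.486 with Aldh3b1 (adjusted permutation p = 0.0646 and 0.136), or 0.391 and 0.336 without 2 rats. This linear sum was carried mostly by Tppp3, with group means of 5.95 to 6.04 in log2 units. The next marker was Rsph1 with 1.59 to 2.13. Relations with the other ciliated markers on their own were not tested. All 5 ciliated markers that passed the filter were higher than in control at 1000 ppm, by a median of 0.45, with an unadjusted p under 0.05 in limma for 2 of them and none called. Of the other marker lists, 1 gene each was called for basal and squamous epithelium (Krt13, a keratin, with 1.18 at 1000 ppm, well above background on 3 control arrays and on 1, 6 and 4 arrays of the exposed groups, so that it entered the test through the 1000 ppm group alone), neutrophils (S100a8, a calcium-binding protein, with 0.71 at 1000 ppm) and red blood cells (Alas2, of haem synthesis, with −0.81 at 1500 ppm), and none had an adjusted p under 0.05. At 1000 ppm, 2 of the 5 basal and squamous genes that passed the filter were higher than in control and 3 lower, with a median of −0.17. The part of any cell type in the differences of the members was not tested.

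The genes whose levels followed a member most closely over the 24 rats are given as a description. For Aldh3b1 they were Riiad1 (r = 0.948, rho = 0.943) and Rsph10b (r = 0.945, rho = 0.930), and for Aldh2 they were Tbc1d10a (r = 0.930, rho = 0.949) and Lrsam1 (r = 0.853, rho = 0.860). For Aldh3a1 they were Inmt (r = 0.882) and Timp4 (r = 0.802), for Aldh1a2 Krt13 (r = 0.851) and Upk1b (r = 0.829), and for Aldh1a3 Akap12 (r = 0.80) and Spon2 (r = 0.779). For Aldh1a1 they were Mipep (r = 0.780) and Plekhb1 (r = 0.752), for Aldh3a2 Ret (r = 0.798) and Rnf139 (r = 0.734), for Aldh7a1 Rnf13 (r = 0.796) and Snap29 (r = 0.795), and for Aldh9a1 Slc3a1 (r = 0.758) and Zfp275 (r = 0.714). Riiad1 and Rsph10b stand in no marker list, though the ciliated list holds Rsph1, whose name is close to that of Rsph10b. Their r with Aldh3b1 was above that of the club cell sum (r = 0.858), but they were picked as the highest of all genes. Whether Aldh3b1 follows club cells or ciliated cells was not tested. Krt13 and Upk1b also stand in the basal and squamous and the mesothelium lists, and all these values share the dose, sex and slide of the rats.

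The rest of the aldehyde dehydrogenase family was taken next. Of 11 other family genes, 8 were on the array and 7 passed the filter, and none had an unadjusted p under 0.05 at any dose. Aldh4a1, which acts in proline breakdown, differed by 0.13, 0.13 and 0.09 with a SE of 0.067, and Aldh6a1, of valine breakdown, by 0.10, 0.13 and 0.14 with a SE of 0.11. Aldh16a1 differed by 0.07, 0.12 and 0.03 with a SE of 0.072, Aldh1l1, a folate enzyme, by 0.18, 0.14 and 0.09 with a SE of 0.18, and its mitochondrial counterpart Aldh1l2 by 0.10, −0.03 and −0.07 with a SE of 0.13. Aldh18a1, of proline synthesis, differed by −0.06, −0.003 and 0.12 with a SE of 0.14. Aldh1b1, a mitochondrial enzyme close to Aldh2, had the widest spread, with differences of 0.36, 1.17 and 0.93 and a SE of 0.68, and it was well above background on 3 control arrays and on 2, 4 and 5 arrays of the exposed groups, so that it entered the test through the 1500 ppm group alone and its intervals do not exclude large changes.

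Genes of neighbouring pathways were counted in the same fit. Of all genes, 49.6%, 51.3% and 53.8% were higher at 600, 1000 and 1500 ppm. At an unadjusted p under 0.05 in limma, 1.87%, 5.34% and 3.9% were higher and 2.46%, 3.65% and 3.06% lower. Called at 1.5-fold were 0.616%, 1.64% and 1.22%. Of 13 genes that passed the filter in the list of aldehyde reductases and alcohol dehydrogenases, 8, 11 and 11 were higher at the 3 doses in rising order. An unadjusted p under 0.05 was found for 1, 2 and 1 of these and for none that was lower, and none was called at 1.5-fold. The median difference of that list was 0.03, 0.10 and 0.06. The list also held the aldehyde oxidases Aox1 and Aox3, which are not reductases. Their means were higher at each dose, Aox1 by 0.56, 0.50 and 0.24 (SE 0.27) and Aox3 by 0.34, 0.23 and 0.18 (SE 0.19). Neither had an unadjusted p under 0.05 in limma at any dose, so that the genes counted above at that threshold were others. Of 17 retinoic acid pathway genes, 12, 10 and 7 were higher, 1 higher gene had an unadjusted p under 0.05 at each dose and 1 lower gene at 1500 ppm, and none was called. Of 6 genes of the aryl hydrocarbon receptor battery none had an unadjusted p under 0.05. Of 13 genes of the Nrf2 battery, which answers electrophiles, 9, 10 and 8 were higher, with an unadjusted p under 0.05 for none at 600 ppm, 1 at 1000 ppm and 1 at 1500 ppm, and none called. Of 10 genes of fatty aldehyde and peroxisomal lipid metabolism, 8, 4 and 4 were higher, and at 1500 ppm 4 of the 6 that were lower had an unadjusted p under 0.05. One of these was called, Cyp4b1, a cytochrome P450 of the lung, with −0.62 (SE 0.14, adjusted p = 0.182 in limma). No gene of any of these lists had an adjusted p under 0.05.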

How the data were processed

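RNA of 24 rat lungs was measured. The deposited intensities are the authors' Agilent Feature Extraction processed signals, background-subtracted within each 1-colour array and not scaled between arrays; the value table of the series, also deposited, holds the same intensities for at least 99.19% of probes within 0.1% on each array. The array normalization is not given in the sources used here. The 42877 non-control spots gave 30367 probes after averaging. Accessions paired 18355 of them (60.4%) with 15443 symbols (GRCr8, names only). Log2 intensity minus the log2 75th percentile of the array was tested in limma 3.58.1 (R 4.3.3, package version 1.17.8 of data.table) on all 24 arrays. Probes well above background on at least 5 of 6 arrays of a group were kept (23616), with 1 probe a gene, that of the highest mean. A gene was called at 1.5-fold and unadjusted p under 0.05; Benjamini-Hochberg adjustment ran over all 21255 features. Exact two-sided permutation tests used 924 splits (smallest p 0.00216), or 400 within sex (0.005). For correlations, 100000 permutations exchanged all 24 rats without regard to dose, sex or slide. Rats are separate animals, and their number limits precision. The fits were tested on simulated data.

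The members and gene lists were chosen with earlier results of these data known. Named are the members, the family genes past the filter, called list genes (up to 4 a list), defining markers, and for each member the 2 genes of highest r. Scanner columns without a sample numbered 0. Alternatives covered background correction (normexp on the median spot signal, offset 50), scaling, filters, probes, blocks for slide, sex and each rat left out. Methylation arrays were not analysed here.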

Additional observations from a re-analysis of the deposited data

Results flagged for a closer look

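A single rat stood apart from the other 5 of its group in 2 of 36 groups of 6 rats, where chance gives about 1 in 20. The lowest high-dose rat for Aldh1a2, male 16, lay at −1.28, and its gap to the next rat was 0.699 of the range of the group. The lowest control rat for Aldh7a1, male 2, lay at 1.23, with a gap of 0.739 of the range.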

How the results depend on the processing

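No paired analysis was possible because the rats carry different numbers in each group. No result changed its direction past a threshold. No member was called at any dose under the alternatives, except 1 at 1000 ppm under normexp (Aldh1a3, −0.62, unadjusted p = 0.0349 in limma). The count of members with an unadjusted p under 0.05 at 600 ppm, 1 as reported, was 0 with quantile normalization, with the unscaled value table and with the slide as a fixed block, and 2 with the methods' t-test and with control and 1 dose alone. At 1000 ppm, 3 as reported, it was 5 with normexp and with sex as a covariate, 1 with quantile normalization, with the slide as a random block and with the heart muscle sum, and 0 with the slide as a fixed block and with the club cell sum. At 1500 ppm, 1 as reported, it was 0 with the unscaled table, both slide blocks and array weights. Members that differed between the sexes, 2 as reported, numbered 0 with normexp and with the slide as a random block, and 1 with quantile normalization and with no filter. Leaving out each rat in turn gave 0 to 2 members at 600 ppm, 1 to 4 at 1000 ppm, 0 to 2 at 1500 ppm and 1 to 3 for sex. The count fell to 1 at 1000 ppm without control rat 2 or middle-dose rats 31, 32 or 33, to 0 at 600 ppm without control rat 2 or low-dose rat 27, and to 0 at 1500 ppm without control rats 1 or 3 or high-dose rats 36 or 37. It was 2 at 600 ppm without control rat 23 or low-dose rat 6, and 2 at 1500 ppm without high-dose rat 16. The sex count was 1 without control rats 2 or 3, low-dose rats 6, 7, 27 or 28, middle-dose rats 12, 13, 31 or 33, or high-dose rat 18. Of 1701 recomputed values of single members, 1571 kept direction and side of the threshold or moved by less than the spread between rats. The causes were not tested. The median of all genes at 1000 ppm, 0.0047 as reported, was 0.11 with the unscaled table and −0.12 with normexp. The sums of heart muscle and club cell markers as covariates, the comparison on shared slides, the fit of each Aldh3a2 probe and the percentile over spots were chosen after seeing the data. Dim members such as Aldh1a3 are limited by signal over background.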
